A study of Rattus norvegicus with 2 samples.

Results

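The genes described here carry zinc finger names, that is Zfp, Znf, Zbtb, Zscan or Zkscan followed by digits only. They were taken from the assembled rat femur annotation by gene name, ignoring case and the endings for predicted or mapped genes. There were 77 such genes among 12567 named genes, with 216 of the 38614 transcripts of named genes. Of the 77 names, 56 were Zfp, 11 Zbtb and 10 Znf names, and the annotation held 0 Zscan and 0 Zkscan names.

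RNA-seq was done on femur tissue of wild-type female Wistar rats after bilateral ovariectomy (OVX), which removes the source of ovarian estrogen, or after a sham operation (SHAM). The labels give 1 OVX and 1 SHAM sample, both at 16 weeks. They add Old_2 for the former and Young_1 for the latter, with no ages. The annotation used here holds transcript models of the whole series, merged from 2 assemblies, and gives no count, expression level or coverage. Depth is therefore unknown, no value can be tied to a single rat, and no OVX to SHAM comparison was made. With 1 labelled sample in each group there is no replicate to compare, and neither the files nor the labels say how many rats entered the 2 assemblies. Neither assembly is tied to a group or a rat, and they are called the first and the second assembly by the order of their transcripts in the annotation. Of 12 osteoblast and osteocyte markers 11 were assembled, and so were 7 of 10 skeletal muscle, 6 of 10 marrow and 5 of 8 osteoclast markers. Also assembled were 3 of 6 adipocyte and 0 of 8 liver markers. Here and in the lists below, assembled means found by symbol or by a unique older name. A name that was not found does not show that the gene was absent. Hba1 and Hbb of the marrow list, for example, were not found. Of all protein-coding symbols 32.6% were found in the annotation by the same matching of names.

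Most zinc finger proteins of this naming are transcription factors. In the classical C2H2 type, a short finger is folded around a zinc ion held by a pair of cysteines and a pair of histidines, and fingers in tandem read DNA. KRAB zinc finger proteins recruit a co-repressor complex and silence retroelements and genes, while Zbtb proteins carry a BTB domain that binds other co-repressors. A few names of this kind belong to proteins that bind RNA, ribosomes or ubiquitin instead. In bone, several members are known regulators of osteoblast, adipocyte and marrow cell formation.

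The names were old in part. In the GRCr8 annotation of RefSeq, 51 of the 77 names are current symbols on the same chromosome as in the files (66.2%), and 22 are older symbols of 1 gene, again on the same chromosome (28.6%). Zfp307 is an older name of both Zkscan3 and Zkscan4, and could not be resolved. The remaining 3 names, Zfp239, Zfp275 and Zfp469, are current symbols of genes on another chromosome. By the current symbol at their position, 10 members do not have a zinc finger name of this kind. They are Zfp162 (Sf1, which binds the branch point in splicing), Zfp216 (Zfand5, a partner of the proteasome), Zfp265 (Zranb2, a splicing regulator), Zfp278 (Patz1, a BTB zinc finger factor), Zfp289 (Arfgap2, of vesicle transport), Zfp364 (Rnf115, a ubiquitin ligase), Zfp406 (Zfat), Znf183 (Rnf113a2), Znf291 (Scaper) and Zfp469 (Tnrc18). The SCAN family was also present under older names, since Zfp95 is Zkscan5, Znf167 is Zkscan7 and Znf498 is Zscan25. Conversely, GRCr8 has 350 protein-coding genes named under the rule, and 88 of them (25.1%) had their name or a unique older name in the annotation. The same share over all 23154 protein-coding symbols was 32.6%.

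Neighbouring genes were used to look at the names on another chromosome, comparing the 8 nearest named genes with the genes around each candidate in GRCr8. Zfp469 lies on chromosome 12 at 13542227 to 13638013, and 3 of its 8 neighbours (Actb, Slc29a4 and Wipi2) also flank Tnrc18. None (0 of 8) flank the current Zfp469 on chromosome 19. Zfp239 lies on chromosome 18 at 15217041 to 15230151, where 4 of 8 neighbours also flank Zfp35, of which Zfp239 is an older name, and 0 of 8 flank the current Zfp239 on chromosome 4. Zfp275 lies on the sequence of chromosome 1, although 3 of its 8 neighbours (Atp2b3, Bgn and RGD1562991) flank the current Zfp275 on the X chromosome. The values for Zfp469 below are therefore those of a gene whose position is that of Tnrc18.

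A transcript found in both assemblies was uncommon among the members. It was present for 13 of the 77 genes (16.9%), beside 30.8% of all named genes. Of the 216 member transcripts 15 were found in both (6.94%), beside 12.2% of all transcripts of named genes, while 100 came from the first assembly only and 101 from the second only. As genes, however, 57 members (74%) had transcripts in both assemblies, close to the 76.5% of all named genes. A further 7 were assembled only in the first and 13 only in the second, beside 1673 and 1278 of all named genes. Thus 44 of the 57 members that both assemblies contained had no transcript in common (77.2%), beside 59.7% of the 9616 named genes that both contained.

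**Figure D1:**
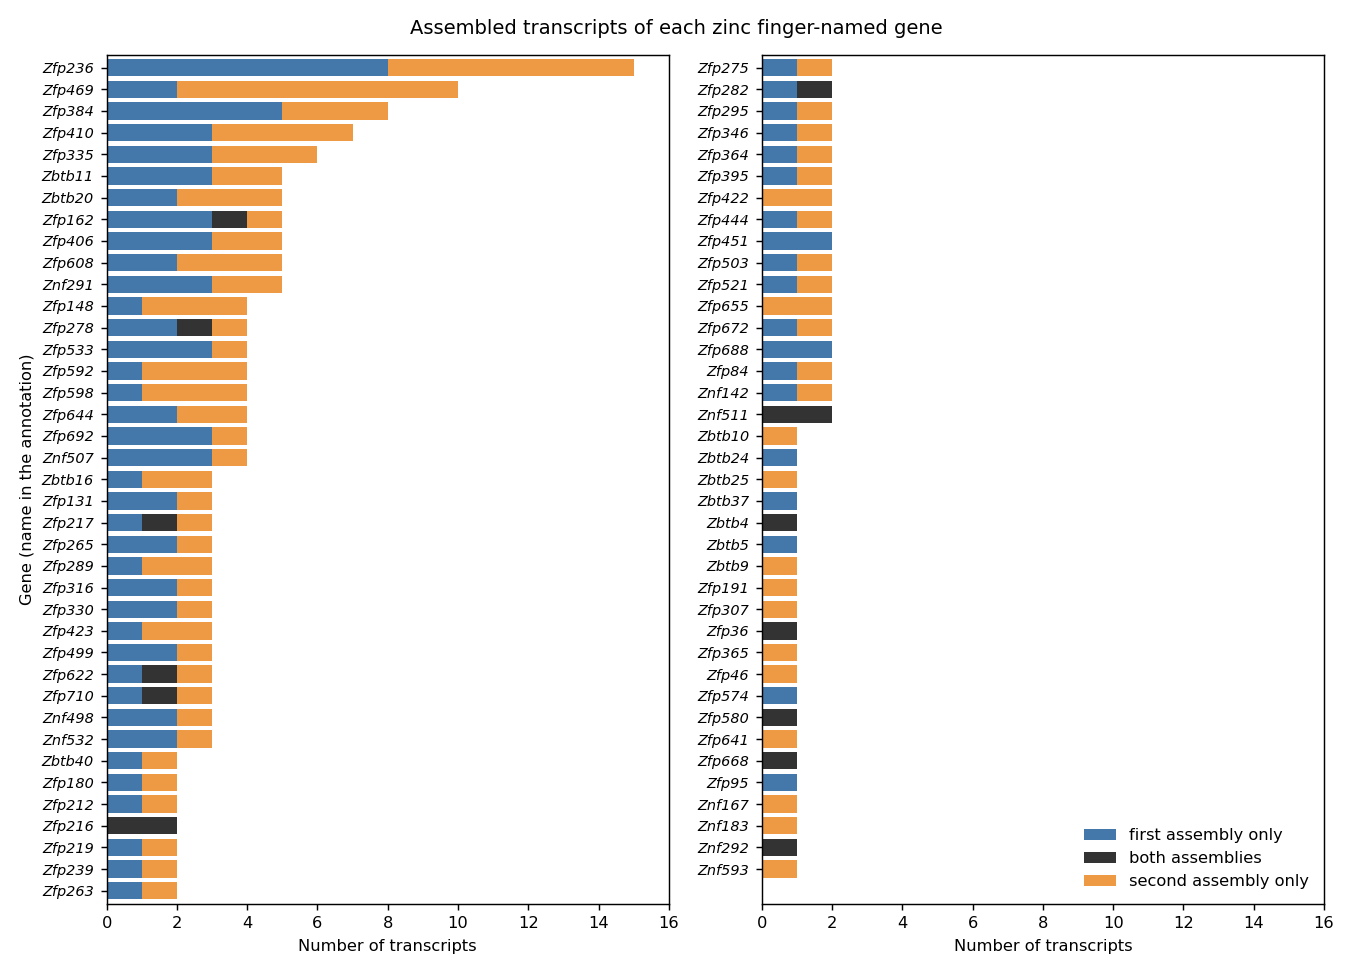
Number of assembled transcripts (x axis) of each of the 77 zinc finger-named genes (y axis), coloured by the assembly that held them. Dark segments, the 15 transcripts found in both assemblies, occur in 13 genes, and Zfp236 has the most transcripts (15) and no dark segment.

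The 13 genes with a transcript in both assemblies covered several functions. Zfp36 encodes tristetraprolin, a CCCH zinc finger protein that binds AU-rich elements and speeds the decay of cytokine mRNAs. It had 1 transcript, of 2 exons and 2550 bp on chromosome 1 (78065354 to 78068573, minus strand), with the full intron chain of its reference, in both assemblies. Zfp216 and Znf511 each had 2 transcripts, both found in both assemblies. Those of Zfp216 had 6 exons and 2614 bp, and 4 exons and 2755 bp, and both matched a reference chain. Zbtb4, which binds methylated CpG, Zfp580, Zfp668 and Znf292 were each represented by 1 transcript, held by both assemblies. That of Znf292 was a single exon of 6733 bp, matched to a reference transcript. Zfp162, Zfp217, Zfp278, Zfp282, Zfp622 and Zfp710 each had 1 transcript in both assemblies beside others in 1 assembly.

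Upstream sequence is shown for 5 genes because all their transcripts were held by both assemblies and had the intron chain, or for Znf292 the single exon, matched to a reference transcript. They are Zfp36, Zfp216 (Zfand5), Zbtb4, Zfp580 and Znf292 (Zfp292). The sequences are the 150 bases before the annotated start, taken from the RefSeq promoter table of build GRCr8. That is not the build of the assembled positions, and whether these starts are those of the assembled transcripts was not determined. For Znf292, a new gene on the same strand lay 264 bp upstream of the assembled exon. Capitals mark GGGCGG, a GC box bound by Sp-type zinc finger factors, CCAAT and TATAAA, each on either strand. Zfp36 is at chr1:92799109-92799258 (minus strand), Zfp216 at chr1:228192615-228192764 (plus strand) and Zbtb4 at chr10:54984136-54984285 (plus strand). Zfp580 is at chr1:77818128-77818277 (minus strand) and Znf292 at chr5:54264439-54264588 (minus strand). For Zfp580 the strands differ, since its assembled transcript is on the plus strand in the files, and the reason was not settled.
Zfp36: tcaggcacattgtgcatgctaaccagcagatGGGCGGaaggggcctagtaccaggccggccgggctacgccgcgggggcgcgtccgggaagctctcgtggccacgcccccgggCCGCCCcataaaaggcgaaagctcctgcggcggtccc
Zfp216: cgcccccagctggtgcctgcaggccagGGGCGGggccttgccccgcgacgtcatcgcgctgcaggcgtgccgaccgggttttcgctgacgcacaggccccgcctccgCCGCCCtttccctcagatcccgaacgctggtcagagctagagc
Zbtb4: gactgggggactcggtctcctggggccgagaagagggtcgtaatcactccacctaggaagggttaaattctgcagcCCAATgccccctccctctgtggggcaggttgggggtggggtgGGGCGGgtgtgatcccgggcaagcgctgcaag
Zfp580: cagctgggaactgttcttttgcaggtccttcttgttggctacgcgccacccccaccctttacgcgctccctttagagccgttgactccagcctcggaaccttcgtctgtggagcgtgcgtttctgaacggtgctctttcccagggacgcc
Znf292: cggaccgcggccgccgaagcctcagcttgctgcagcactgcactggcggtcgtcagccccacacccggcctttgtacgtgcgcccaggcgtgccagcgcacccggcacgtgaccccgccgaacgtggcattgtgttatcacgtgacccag
Zfp36 and Zfp216 each had 2 GC boxes, and Zbtb4 had 1 GC box and 1 CCAAT motif, while Zfp580 and Znf292 had 0 of either. TATAAA was found 0 times in all 5. Over the same 150 bases of all 33469 promoters of the table, 26% had a GC box, 23.5% CCAAT and 8% TATAAA. A promoter was found for 61 of the 77 members (79.2%), below the 80% needed for a comparison of base composition, so none is given.

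A full reference intron chain was assembled for 30 of the 77 members (39%), beside 38.6% of all named genes. Both assemblies held such a chain for 9 members (11.7%), beside 20.3% of all named genes, and 12 members had it in the first assembly only and 9 in the second only, beside 1386 and 907 of all named genes. Of the 35 member transcripts with a full chain 10 were found in both assemblies (28.6%), beside 50.2% of such transcripts of all named genes. In 28 of the 30 members a full chain means that all introns match, which says nothing of the outer ends. In the other 2, Znf183 and Znf292, a single-exon transcript without introns was matched to a reference transcript and is counted with them, as for 841 of the 4848 named genes with a full chain. For example, the chain of Zfp580 was matched by a transcript of 411 bp and that of Zbtb4 by one of 499 bp.

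By class, the member transcripts were mostly fragments. Transcripts contained within a reference transcript made up 110 of 216 (50.9%), beside 56.1% of those of all named genes. Class j transcripts match the reference at 1 or more junctions without a full or contained match. They need not hold a new junction, since in Zfp180 the 2 junctions of such a transcript were also in its full chain. They made up 67 (31%), beside 25.6%, and full chains 35 (16.2%), beside 15.4%. The other 4 were 1 each of 4 kinds. Zfp217 had a transcript of 7 exons and 4100 bp that contained a whole reference transcript, and Zfp162 one that retained an intron, of 13 exons and 3869 bp. Zfp644 had a transcript of 4 exons and 2386 bp with a retained intron and a partial match of the intron chain, and Zfp692 had 3 exons of 202 bp in all with another overlap. Only contained fragments were assembled for 17 members (22.1%), beside 27.1% of all named genes. Of the contained fragments 3 were found in both assemblies (2.73%, beside 4.85%), and of the class j transcripts 1 (1.49%, beside 5.76%).

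**Figure D2:**
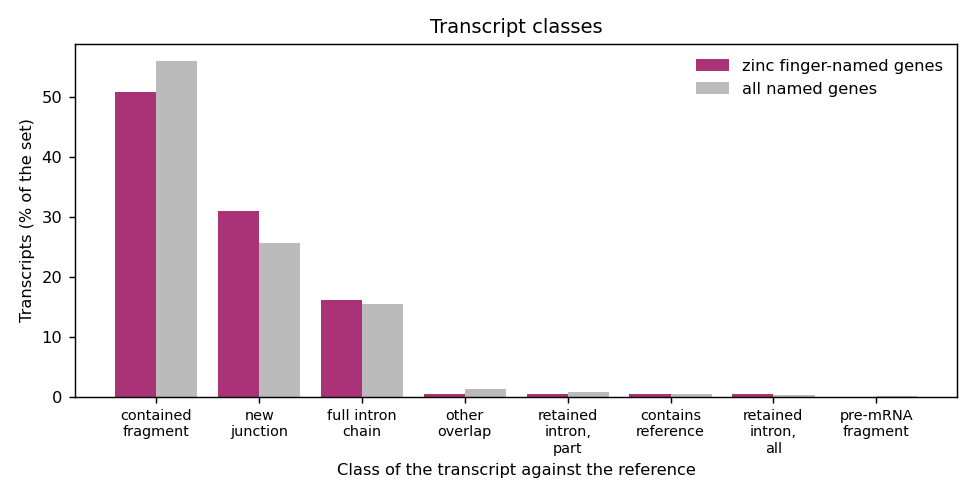
Share of transcripts (y axis, %) in each class against the reference annotation (x axis), for the zinc finger-named genes (216 transcripts) and all named genes (38614 transcripts). Contained fragments are the most frequent class in both sets, 50.9% and 56.1%, and class j, drawn as new junction, is 31% and 25.6%.

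The number of exons and the length of the member transcripts were set beside those of all named genes. The median was 3 exons per transcript (quartiles 2 and 4.25) beside 4 over all named genes (2 and 6), and 78 transcripts (36.1%) had 2 exons, beside 22.5%. Exonic length had a median of 695.5 bp beside 592 bp, with an upper quartile of 1837 bp beside 1185 bp. For the 66 members with a current zinc finger name the median was 610 bp. Taking the longest transcript of each gene, the median was 1510 bp for the members and 1000 bp for all named genes. Taking the transcript with the most exons, it was 4 exons beside 5. Transcripts per gene had a median of 2 in both sets. Among the families, the median length of the longest transcript was 1796 bp for Zfp, 1304 bp for Zbtb and 1103 bp for Znf names. A single transcript was assembled for 7 of the 11 Zbtb genes (63.6%), for 10 of the 56 Zfp genes (17.9%) and for 4 of the 10 Znf genes (40%), beside 27.3% of all members and 31.6% of all named genes. These families follow the names in the annotation. By current symbol 13 members are Zbtb genes and none is a Znf gene. The 13 include Zfp295 (Zbtb21) with 2 transcripts and Zfp499 (Zbtb45) with 3.

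The long exon of these genes could be seen where the intron chain was complete. In 28 members with a spliced full chain, the median share of exonic sequence in the longest exon was 63.8% (quartiles 53.2% and 84.9%), beside 55.3% in 4007 such genes overall. The transcripts of the 28 had a median of 3.5 exons and 2796.5 bp, beside 5 exons and 1715 bp. The median longest exon was 1680 bp beside 783 bp. It was the last exon in 21 of the 28 (75%), beside 81.2%, and an internal one in 5 (17.9%), beside 6.16%. In C2H2 genes the finger array is often encoded by 1 exon, but no protein sequence was used here, so which exons encode fingers was not determined. Zbtb5 had 95.3% of its 4348 bp in a last exon of 4145 bp. In Zbtb9 94.6% of 2775 bp, in Zfp422 94.5% of 3074 bp and in Zfp655 91.4% of 4276 bp lay in the last exon. By contrast, the longest exon was internal in Zbtb16, Zfp217, Zfp423, Zfp469 and Zfp499, and Zfp469 had only 15.3% of its 10676 bp in it.

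**Figure D3:**
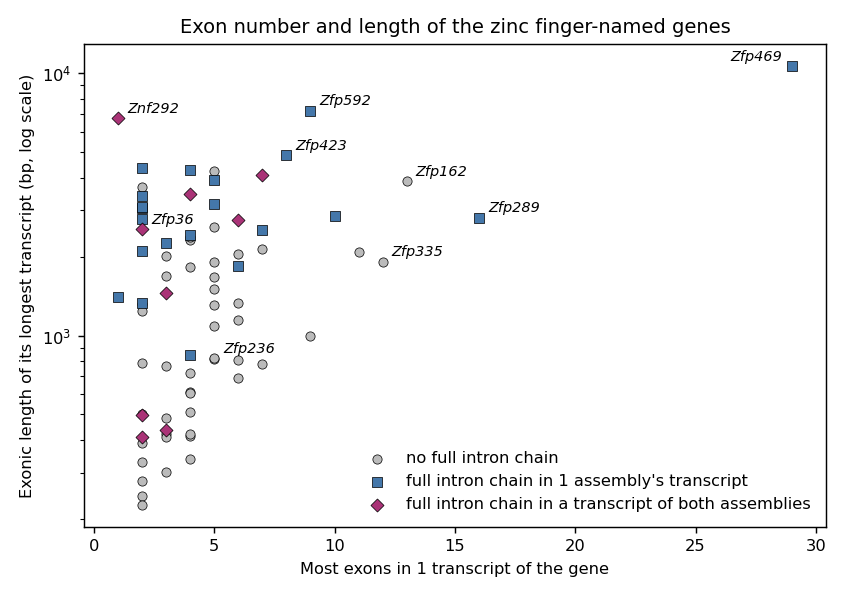
Exonic length of the longest transcript (y axis, bp, log scale) against the most exons in 1 transcript (x axis), 1 point per zinc finger-named gene, with marker and colour for the presence of a full reference intron chain. Zfp469 stands apart with 29 exons and 10676 bp, and Znf292 reaches 6733 bp with 1 exon.

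The shares varied with the length of the longest transcript. Among genes whose longest transcript was under 1000 bp, 5 of 29 members (17.2%) had a transcript in both assemblies, beside 20.9% of all named genes of that length. From 1000 bp to below 2500 bp, 2 of 25 members (8%) had one, beside 39.1%. At 2500 bp or more, 6 of 23 members (26.1%) had one, beside 44.3%. For a full chain, the members were below all named genes in the shortest and middle groups and above them in the longest. It was found in 4 of 29 members (13.8%) beside 21.3% in the shortest group, in 7 of 25 (28%) beside 49.8% in the middle group, and in 19 of 23 (82.6%) beside 68.2% in the longest group. Both assemblies, with shared transcripts or not, held 75.9% of the members in the shortest group, beside 62.1% of all named genes. In the middle group it was 72%, beside 90.3%, and in the longest 73.9%, beside 92.4%. These length groups were chosen after the values had been seen.

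**Figure D4:**
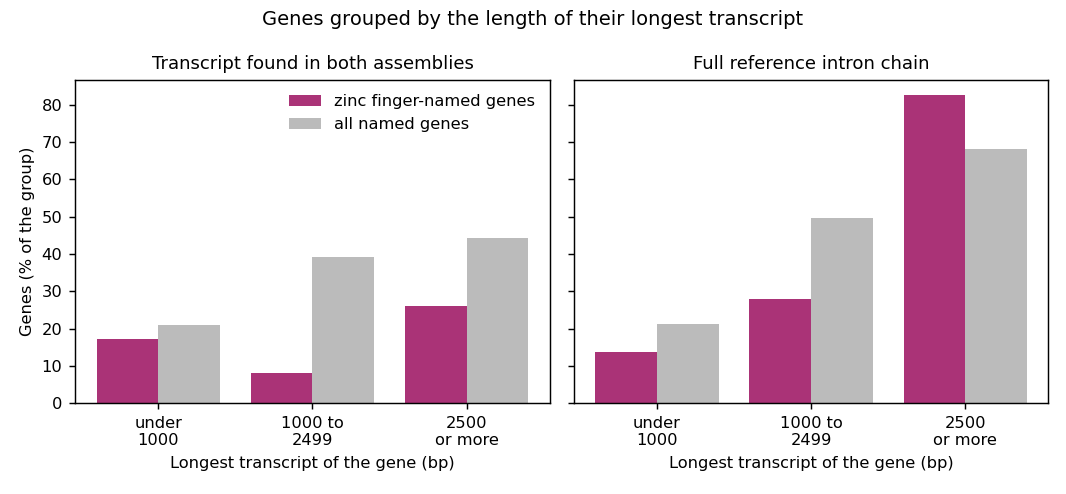
Share of genes (y axis, %) with a transcript found in both assemblies (left) and with a full reference intron chain (right), by the length of the longest transcript of the gene (x axis, bp). For the zinc finger-named genes the bars are 17.2%, 8% and 26.1% on the left and 13.8%, 28% and 82.6% on the right.

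The 20 members held by 1 assembly only were not mainly short fragments. A full chain was present in 9 of them (45%), beside 28.6% of the 2951 named genes held by 1 assembly, and the median length of the longest transcript was 1330 bp beside 395 bp. In the first assembly only were Zbtb5, Zfp574 and Zfp688, each with a full chain of 2 exons, and the fragments of Zbtb24, Zbtb37, Zfp95 and Zfp451. Zfp574 had 3393 bp, of which 90% was in its last exon, and Zfp688 had 2 transcripts, of 1328 bp and 921 bp. In the second only were Zbtb9, Zfp191, Zfp422, Zfp655 and Znf593 with a full chain, Znf183 with a matched single exon, and Zbtb10, Zbtb25, Zfp46, Zfp307, Zfp365, Zfp641 and Znf167 without one. Of the latter 7, Zfp46 was the longest, with a class j transcript of 3671 bp in 2 exons, and Znf167 the shortest, with 278 bp. These genes were named after their values had been seen. Another 32 members (41.6%) were held by both assemblies with neither a transcript in common nor a full chain, beside 34.4% of all named genes. The longest transcript of these 32 had a median of 1042 bp, beside 913.5 bp.

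Junctions gave a finer view of what the assemblies shared. The 57 members held by both assemblies had 374 different exon junctions, of which 175 were in both (46.8%), beside 57.4% over all named genes held by both. Of their exonic bases 46.9% were covered by both, beside 61.2%. A transcript found in both assemblies was counted with the same positions for each, so all its bases were shared by construction. Its outer ends in each assembly were not compared. The share of such transcripts, which was lower among the members, therefore enters both percentages of bases. Among the 56 of these 57 members with a junction, 6 had all junctions in both assemblies (10.7%, beside 17.5%) and 12 had none in both (21.4%, beside 10%). The 12 were Zfp84, Zfp219, Zfp239, Zfp295, Zfp330, Zfp503, Zfp521, Zfp533, Zfp608, Zfp672, Zfp692 and Znf291. Zfp503 had 0 junctions in the second assembly, so none could be shared, and Zfp239, Zfp295 and Zfp672 had 1 junction in each assembly. In 6 of the 12, Zfp239, Zfp295, Zfp330, Zfp521, Zfp533 and Zfp692, the assemblies did not share a single exonic base, although both had transcripts of the gene. This held for 10.5% of the 57 members and for 5.17% of all named genes held by both.

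**Figure D5:**
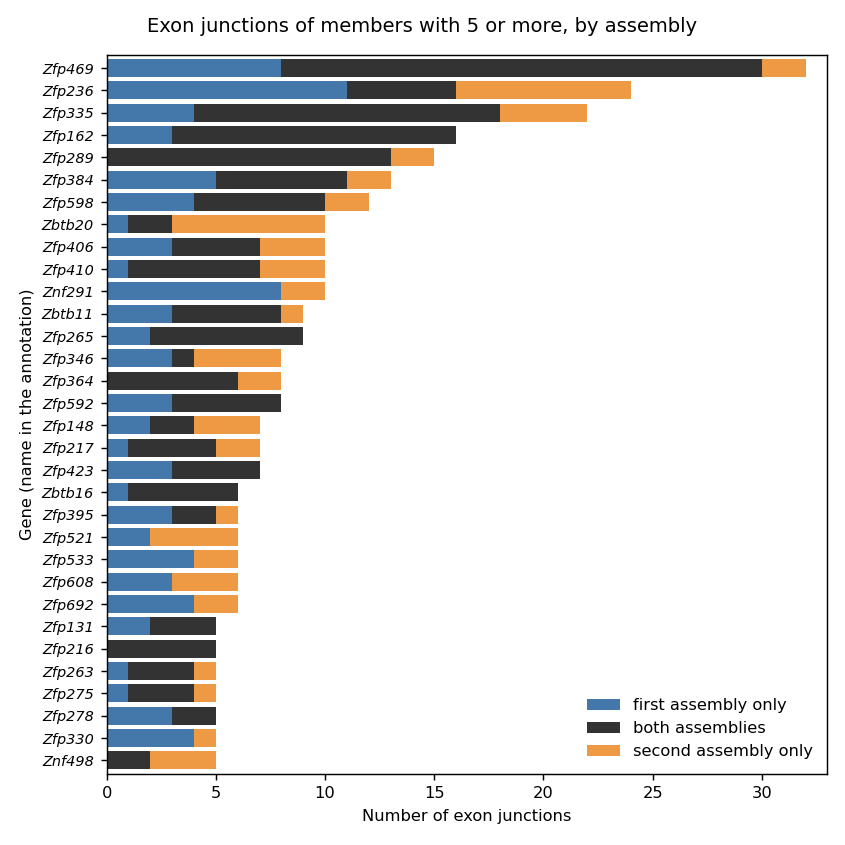
Number of different exon junctions (x axis) of each of the 32 zinc finger-named genes that both assemblies held with 5 or more junctions (y axis), coloured by the assembly that held the junction. The dark part is 22 of 32 junctions for Zfp469 and 5 of 24 for Zfp236, and it is missing for Znf291, Zfp521, Zfp533, Zfp608, Zfp692 and Zfp330.

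Among regulators of bone, fat and marrow cells, 11 of 15 listed genes were assembled, beside 32.6% of all protein-coding symbols. Both assemblies held 10 of the 11 (90.9%), beside 76.5% of all named genes. A transcript in both was present for 3 (27.3%) and a full chain for 4 (36.4%), beside 30.8% and 38.6% of all named genes. Of the 8 that are members, 1 had a transcript in both (12.5%), Zfp36, and 3 had a full chain (37.5%). Zfp521, a regulator of osteoblast formation that binds Runx2 and restrains its activity, spanned chromosome 18 from 4826831 to 5105751 on the minus strand. It was present as 2 contained fragments, 1 of 5 exons and 1044 bp in the second assembly and 1 of 3 exons and 1669 bp in the first, which covered neighbouring stretches with no overlap. Zfp423, a factor of preadipocyte commitment, lay on chromosome 19 (19008991 to 19288104, plus strand), and the first assembly had its full chain, of 8 exons and 4869 bp. The second assembly held 2 fragments of it, each of 3 exons, with 722 bp and 332 bp, and shared 4 of its 7 junctions.

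Zbtb16 (PLZF), known from invariant T cells and from osteogenic differentiation, showed the same division. The first assembly had the full chain of 7 exons and 2518 bp, and the second had fragments of 4 exons (566 bp) and 3 exons (1725 bp), which together shared 5 of 6 junctions with it. Zfp384 (Nmp4, a nuclear matrix factor that restrains bone formation) had 8 transcripts, 5 in the first and 3 in the second assembly. Of these 5 were of class j, and 6 of the gene's 13 junctions were in both assemblies. Its longest transcript had 7 exons and 2143 bp. Zbtb20, which acts in growth plate chondrocytes and liver, had 5 transcripts over a span from 56636998 to 57341043 on chromosome 11, and 2 of its 10 junctions were in both assemblies. Zbtb40, named in genetic studies of bone mineral density, had 2 short fragments of 422 bp and 255 bp, and Zbtb11 had 5 transcripts with 5 of 9 junctions in both. Zbtb46 was found under the older name Btbd4, with 2 transcripts in the first assembly only. The longest was 300 bp. Zbtb7a and Zbtb7b, which end in a letter and so are no members, each had 1 transcript, held by both assemblies.

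Of 11 listed genes that act on chromatin or methylated DNA 5 were assembled, beside 32.6% of all protein-coding symbols. They were Zbtb4, Zbtb24, Zfp148, Zfp217 and Zfp335. Of these, 2 had a transcript in both assemblies and 2 a full chain (40% each), beside 30.8% and 38.6% of all named genes. Zbtb24, whose loss in humans impairs DNA methylation at satellite repeats, had only a fragment in the first assembly, of 4 exons and 338 bp. Zfp148 had 4 transcripts, the longest of 3 exons and 4256 bp, and 2 of 7 junctions in both assemblies. Zfp217, a co-repressor component, had a full chain of 5 exons and 3355 bp in both assemblies on chromosome 3 (157442743 to 157453463, minus strand). The larger transcript of 7 exons, in the second assembly, extended to 157480704. Zfp335, a subunit of a histone methyltransferase complex, had 6 transcripts of 4 to 12 exons, 3 in each assembly, with 14 of 22 junctions in both and no full chain.

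Of 12 listed genes that act on RNA, ribosomes or ubiquitin 7 were assembled, beside 32.6% of all protein-coding symbols. All 7 were in both assemblies, beside 76.5% of all named genes. Of these, 3 had a transcript in both and 3 a full chain (42.9% each), beside the same 30.8% and 38.6%. Of the 6 that are members, the counts were again 3 and 3 (50% each). Beside Zfp36 they were Zfp162, Zfp265, Zfp346, Zfp598 and Zfp622, and Zfp638 under the older name Zfml. Zfp162 (Sf1) had 5 transcripts, each of 13 exons and from 2916 bp to 3869 bp, none with a full chain, and 13 of 16 junctions in both. The transcript found in both assemblies was the one that retained an intron. Zfp598, the ubiquitin ligase that senses collided ribosomes, had 4 transcripts, the longest of 11 exons and 2087 bp, with 6 of 12 junctions in both. Zfp622, a factor of the large ribosomal subunit, had 1 full chain of 2 exons and 1458 bp in both assemblies and a fragment in each. Zfp346, which binds double-stranded RNA, had 1 transcript per assembly, each of class j, and 1 of 8 junctions in both. Zfp265 had full chains of 10 exons (2868 bp) and 3 exons (1974 bp) in the first assembly and a fragment of 8 exons in the second, with 7 of 9 junctions in both.

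The most fragmented member was Zfp236, on chromosome 18 from 74615820 to 74692910 on the minus strand. Its 15 transcripts had 2 to 5 exons and at most 819 bp, 8 in the first and 7 in the second assembly, and began at 14 different start groups. Of them 11 were contained fragments and 4 were of class j, and 5 of 24 junctions were in both assemblies. Zfp469 was next with 10 transcripts. The first assembly had 2 transcripts of 29 exons, 1 of them a full chain of 10676 bp, while the second had 8 pieces of 2 to 9 exons and at most 2392 bp. Nevertheless, 22 of its 32 junctions were in both. Zfp410, a factor known to activate Chd4, had 7 transcripts of 2 to 6 exons and at most 690 bp, with 6 of 10 junctions in both. Zfp592 was the longest after Zfp469, since the first assembly had its full chain, of 9 exons and 7208 bp, and the second had 3 fragments. Zfp289 (Arfgap2) had a full chain of 16 exons and 2818 bp in the second assembly, and 13 of its 15 junctions were in both.

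Among the 57 members held by both assemblies, the full chain was only in the first for 9 and only in the second for 3, beside 893 and 555 of all named genes held by both. The 9 were Zbtb16, Zfp212, Zfp265, Zfp423, Zfp469, Zfp499, Zfp503, Zfp592 and Zfp692, and the 3 were Zfp180, Zfp289 and Znf498.

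Clusters were sought by position. With neighbours less than 500 kb apart, 15 of the 77 members (19.5%) fell into 7 clusters, of which 1 had 3 members and 6 had 2. At less than 200 kb apart 11 members (14.3%) were in a cluster, and at less than 1 Mb 21 (27.3%). A share over all named genes would depend on their greater density and is not given. With the 66 members that have a current zinc finger name, 11 (16.7%) were in a cluster at 500 kb, since the pairs with Znf183 and Zfp469 below were lost. The cluster of 3 was on chromosome 12, from 11133000 to 11192521, with Znf498 (Zscan25), Zfp655 and Zfp95 (Zkscan5) all on the minus strand. The gaps were 19.3 kb and 10.7 kb, with 0 other named genes between them. Zfp655 and Zfp95 were assembled in 1 assembly each, the second and the first, and Znf498 in both. On chromosome 10, Zfp692 on the plus strand and Zfp672 on the minus strand faced each other with a gap of 2.33 kb. The pairs Zfp282 and Zfp212 on chromosome 4 and Zfp239 and Zfp191 (Zfp24) on chromosome 18 were 14 kb and 16.9 kb apart, also with 0 named genes between. Zfp410 and Znf183 on chromosome 6 (74.6 kb), Zfp688 and Zfp668 on chromosome 1 (432 kb) and Zfp316 and Zfp469 on chromosome 12 (447 kb) had 2, 15 and 7 other named genes in their spans.

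By chromosome, 16 members were on chromosome 1, 1% of its 1596 named genes, and 6 on chromosome 18, 2.07% of its 290. Members made up 0.613% of named genes overall. Chromosome 16, with 373 named genes, and the X chromosome, with 310, had 0 members, with Zfp275 counted on chromosome 1 as in the files.

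The annotation also assigned unnamed transcripts to members as the reference gene they overlapped. There were 21 at 13 members (16.9% of the members, beside 13.5% of all named genes). Of them 13 (61.9%) lay inside introns of the reference gene, 9 on its strand and 4 on the other, and 8 (38.1%) overlapped exons on the opposite strand, beside 74.7% and 25.3% of all 2733 such transcripts. Their exonic length was 207 bp to 1373 bp, and 17 had 1 exon (81%, beside 62.7%). In both assemblies 0 were found, beside 2.01%, with 7 in the first only and 14 in the second only, beside 1038 and 1640. The longest, of 1373 bp, was antisense to Zfp672 and lay at 41788085 to 41789457, from the gap between Zfp692 and Zfp672 into the 3′ end of Zfp672. Zfp469 had 4 such transcripts, and Zfp217 and Zbtb20 3 each, all of the latter 6 inside reference introns. The 3 at Zbtb20 and the 1 at Zfp263 lay outside the assembled span of the gene. Of the 1507 new genes, 8 lay within 5 kb of 8 members (10.4%), beside 4.56% of all named genes with a new gene that near. The new gene next to Zbtb4 started 353 bp downstream on the same strand, had 2 exons and 954 bp, and was in both assemblies. Those at Zfp444, Zfp710, Zfp217, Zfp384, Znf292, Zbtb16 and Zfp655 were in 1 assembly each.

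Most genes for known partner proteins were assembled, beside 32.6% of all protein-coding symbols. Of 20 genes listed around the KRAB co-repressor complex 15 were found, all 15 in both assemblies, beside 76.5% of all named genes. A transcript in both was present for 8 (53.3%) and a full chain for 6 (40%), beside 30.8% and 38.6%. Dnmt1, the maintenance DNA methyltransferase, had 1 transcript of 38 exons and 5917 bp with a full chain in both assemblies. Chd4, the remodelling ATPase of the complex, had 3 of its 4 transcripts in both. Trim28, the KRAB-binding scaffold itself, and Setdb1, its histone methyltransferase, were not found by name, and neither were Cbx1, Hdac1 and Rbbp4. Of 10 genes for BTB co-repressors and their ligase 9 were found, all in both assemblies, 2 with a transcript in both and 2 with a full chain (22.2% each), beside the same shares of all named genes. Ncor1 had 10 transcripts, the longest of 48 exons and 9974 bp, and 0 of these were found in both assemblies.

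Other C2H2 factors, outside the rule on names, were assembled for 38 of 50 listed genes, beside 32.6% of all protein-coding symbols. A transcript in both assemblies was present for 15 of the 38 (39.5%), beside 16.9% of the members and 30.8% of all named genes, and a full chain for 19 (50%), beside 39% and 38.6%. Both assemblies held 33 of the 38 (86.8%), beside 74% and 76.5%. They included Sp7, the osteoblast factor osterix, with 2 transcripts and 1 full chain, neither transcript in both assemblies. Egr1, Klf10, Rest, Snai1 and Snai2 each had 1 transcript, found in both.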

How the data were processed

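RNA-seq reads of rat femur were processed by the authors, and the processing notes name FastQC, HISAT2, StringTie, featureCounts and the build rn4, with no versions. The deposited values are positions of transcript models and of new genes, a unit of other kind than counts, with class codes and the number of assemblies per transcript. The files name no build, so positions are given as in the files, and the build they follow was not settled here. Sequences were assigned to chromosomes by current symbols, of which 99.1% of 5339 fell on the main chromosome. The assembly of a transcript was read from the numbering, which passes through each strand of a sequence in the first and again in the second assembly, with 0 shared transcripts in the second pass. Transcripts were joined by gene name. Functions were checked on simulated transcripts. Genes of lists were matched by symbol or by an older symbol of 1 gene only. The members and lists were chosen with earlier results of these data known. Named genes were those of the role lists, the members with the most transcripts, most exons, longest transcript and most transcripts in both assemblies, those in clusters of 3 or more, and those with a rare class. Other genes named, such as the 3 names on another chromosome, the members with long last exons or without shared junctions, and those beside unnamed transcripts or new genes, were chosen after their values were seen. No test was run. Python 3.11.15, numpy 2.4.6 and matplotlib 3.10.9 were used.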

Additional observations from a re-analysis of the deposited data

How the results depend on the processing

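Of 24 alternatives over 8 results, 18 stayed within the 95% interval of the main value, or within 1.5 times for a count. The interval was Wilson's for shares and from order statistics for medians, and it covers the number of genes or transcripts only. The share of members with a full reference chain, 39%, was 11.7% when only transcripts found in both assemblies were used, beside 20.1% of all named genes. Without contained fragments, 11.3% of member transcripts were found in both assemblies, beside 21.6% of those of all named genes, and the median number of transcripts per member was 1. With 1 transcript per gene the median exon number was 4 and the median exonic length 1510 bp. When a cluster needed 3 or more members, 3.9% of members were in one. Each of these follows from the set of transcripts or clusters counted. Restriction to the 66 members with a current zinc finger name, added after the data were seen, gave 15.2% of genes with a transcript in both assemblies and 37.9% with a full chain, and a median exonic length of 610 bp, beside 592 bp over all named genes. The alternative on the spacing of C2H2 motifs was not run, since no protein sequence was used here. With 1 labelled sample in each group no replicate could be left out. No paired analysis was possible because the values are not split by sample and no test was run.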

Other observations

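A few zinc finger genes stood just outside the rule on names. Zfp36l1 and Zfp36l2, paralogues of tristetraprolin that also bind AU-rich elements, each had 1 transcript of 2 exons with a full chain, of 3120 bp and 3209 bp, found in both assemblies, as Zfp36 did. The Ikaros family, which acts in lymphoid development, was present in part under older names, and Ikzf4 was not found. RGD1562979 (Ikzf1, Ikaros itself), Zfpn1a2 (Ikzf2), Zfpn1a3 (Ikzf3) and Zfpn1a5 (Ikzf5) had 7, 1, 5 and 2 transcripts. Of these transcripts 0 were found in both assemblies. Ikzf1 had 2 full chains and a longest transcript of 3056 bp, and Ikzf5 had 1 full chain. Zfpm2, a GATA cofactor, had 2 transcripts, 1 with a full chain.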
